A study of Homo sapiens with 8 samples.

Results

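The apolipoproteins APOE, APOC1 and APOC2, the cholesterol exporters ABCA1 and ABCG1, their nuclear receptor NR1H3, the ubiquitin ligase MYLIP and the lipase LPL were followed in 2 leukemia cell lines treated with the anti-inflammatory drug diclofenac. Every probe set annotated with 1 of these 8 gene symbols was taken, with no filter on low values. This gave 14 probe sets of 7 genes, and 2 further probe sets that the annotation lists for APOC2 together with APOC4 and the APOC4-APOC2 read-through, so APOC2 has no probe set of its own symbol alone. The 16 probe sets stand among 22215 that were tested. The genes were chosen as a pathway from values measured on these same arrays, in the diclofenac and the line comparisons, so the values that follow describe them, and adjusted p-values are those of the fit over all probe sets.

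The 8 arrays form 4 groups of 2. They were THP-1 cells with diclofenac at 100 µM for 48 hours, THP-1 cells with the solvent DMSO in an equal amount for 48 hours, HL-60 cells with diclofenac at 100 µM for 48 hours, and HL-60 cells with DMSO for 48 hours. THP-1 is a monocytic and HL-60 a promyelocytic acute myeloid leukemia line, and all cells grew in RPMI-1640 with fetal bovine serum, which carries lipoproteins of its own. The titles call the arrays biological replicates, and nothing else says that the cultures were separate, so p-values measure the spread between these arrays only.

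A macrophage or monocyte that takes up lipoproteins is left with cholesterol it cannot break down. Oxysterols formed from that cholesterol bind the liver X receptors, of which NR1H3 encodes LXR alpha, and these receptors pair with retinoid X receptors on DNA. Known targets are ABCA1, which loads cholesterol onto lipid-poor apolipoproteins, ABCG1, which loads it onto high-density lipoprotein, the APOE, APOC1, APOC4 and APOC2 gene cluster, LPL, which splits triglycerides in lipoproteins, and MYLIP, which marks the low-density lipoprotein receptor for degradation.

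In the RefSeq annotation of GRCh38.p14 the apolipoprotein genes lie together on chromosome 19. APOE spans chr19:44905796-44909393, APOC1 chr19:44914325-44919346, APOC4 chr19:44942237-44945496 and APOC2 chr19:44946051-44949565. APOC1 starts 4932 bases after the end of APOE, and the cluster from the start of APOE to the end of APOC2 covers 43770 bases. The other genes lie apart, with ABCA1 at chr9:104781006-104928155, ABCG1 at chr21:42199689-42297244, NR1H3 at chr11:47248300-47269033 and MYLIP at chr6:16129086-16163887.

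The promoters of ABCA1, APOC2 and APOE are shown because LXR and its partner are known to bind repeats of the hexamer AGGTCA spaced by 4 bases. Each line holds the 250 bases before the annotated start, from RefSeq on GRCh38.p14, read 5′ to 3′ on the strand of the gene. The first is chr9:104928156-104928405 on the minus strand, the next chr19:44945801-44946050 on the plus strand and the last chr19:44905546-44905795 on the plus strand. Capitals mark a match to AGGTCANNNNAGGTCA, searched on both strands with up to 2 mismatches over its 12 fixed letters.
ABCA1: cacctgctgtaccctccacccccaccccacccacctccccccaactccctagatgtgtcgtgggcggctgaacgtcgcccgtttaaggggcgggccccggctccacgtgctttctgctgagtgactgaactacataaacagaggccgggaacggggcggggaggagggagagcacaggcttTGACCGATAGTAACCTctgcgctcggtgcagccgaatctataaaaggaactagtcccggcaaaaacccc
APOC2: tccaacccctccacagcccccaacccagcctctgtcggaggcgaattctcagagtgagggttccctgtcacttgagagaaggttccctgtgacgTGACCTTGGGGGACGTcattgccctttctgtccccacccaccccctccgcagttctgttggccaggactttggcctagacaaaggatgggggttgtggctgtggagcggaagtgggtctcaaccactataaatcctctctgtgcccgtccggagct
APOE: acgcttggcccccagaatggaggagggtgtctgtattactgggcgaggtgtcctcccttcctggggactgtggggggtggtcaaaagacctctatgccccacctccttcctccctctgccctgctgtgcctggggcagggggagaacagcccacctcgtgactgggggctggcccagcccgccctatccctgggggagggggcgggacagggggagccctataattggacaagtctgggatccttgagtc
The ABCA1 match reads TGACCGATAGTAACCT on the gene's strand, lies 69 to 54 bases before the start and holds 10 of the 12 letters. The APOC2 match reads TGACCTTGGGGGACGT, lies 156 to 141 bases before the start and also holds 10 of the 12 letters. The motif was found in 2.03% of 35116 annotated human promoter windows of this length. Of 11 windows of 6 of the genes, these 2 held a match, and ABCG1 and LPL were not searched. The letters TATAAA begin 31 bases before the ABCA1 start and 30 bases before the APOC2 start, against 6.8% of all windows that hold them anywhere. A match describes the letters only.

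The arrays were comparable except for replicate 2 of THP-1 with DMSO. The background of an array, the level under which 95% of its 27 bacterial controls lay, was 42.3 and 50 intensity units in THP-1 with diclofenac, 33.2 and 238.6 in THP-1 with DMSO, 45.1 and 42.6 in HL-60 with diclofenac, and 60.2 and 51 in HL-60 with DMSO. In THP-1 with DMSO replicate 2, 50.32% of probe sets lay above background, against 66.36% to 72.14% on the other 7 arrays. Its correlation with its own replicate was 0.898, while the replicates of the other 3 groups correlated at 0.977 to 0.984. On it, APOE 203381_s_at and 203382_s_at, 206738_at, ABCA1 216066_at, ABCG1 204567_s_at, NR1H3, MYLIP and LPL 203548_s_at were not above background, whatever their reading. In HL-60 with diclofenac replicate 2, NR1H3, ABCA1 203504_s_at and LPL 203549_s_at were not above background either. The THP-1 diclofenac changes given for the members are followed by the change without THP-1 DMSO replicate 2, which leaves THP-1 with DMSO as 1 array that is assumed to vary like the other groups.

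Markers of monocytes followed the line labels in part. Summed over 10 monocyte markers, intensity was 43992.6 and 46170.7 in THP-1 with diclofenac, 37748.9 and 27231.9 in THP-1 with DMSO, 16044.9 and 23710.7 in HL-60 with diclofenac, and 17938.9 and 17618 in HL-60 with DMSO. The monocyte co-receptor CD14 was at 332.9 and 310.5 in THP-1 with diclofenac against 55.6 and, not above background, 45.2 in THP-1 with DMSO. Neither CD14 nor another of the 10 monocyte markers passed an adjusted p of 0.05 for diclofenac in THP-1. CD14 was above background on no HL-60 array. S100A8 and S100A9 made up most of the line difference in the sum, while FCN1 went the other way. FCN1 read 10.1 to 269.7 over the THP-1 arrays and 367.1 to 539.2 over the HL-60 arrays. At an adjusted p under 0.05, 3 of the 10 were higher in THP-1 and 1 lower under each treatment. Of all genes, 8.35% were higher and 7.62% lower with diclofenac, and 9.29% and 9.31% with DMSO. Summed over 7 markers of promyelocytes, intensity was 50810.4 and 54257.6 in THP-1 with diclofenac, 63021.2 and 45253.8 in THP-1 with DMSO, 35953.6 and 40829.1 in HL-60 with diclofenac, and 40902.9 and 42631.7 in HL-60 with DMSO. Of these markers, 6 were above background on every HL-60 array. MPO, the peroxidase of primary granules, was low in HL-60, at 61.2 and 57.8 with diclofenac. With DMSO it read 41.7 and 40.6 there, not above background. In THP-1 MPO read 203.9 and 170.6 with diclofenac, and 201.4 and, not above background, 235.6 with DMSO. At an adjusted p under 0.05, 4 of the 7 were higher in THP-1 and 1 lower with DMSO, where 9.29% and 9.31% of all genes were. With diclofenac 3 were higher and 1 lower, where 8.35% and 7.62% of all genes were. These markers thus did not follow the label of HL-60 as the promyelocytic line. Summed over 9 macrophage markers, intensity was 1202.8 and 1313.7 in THP-1 with diclofenac and 651 and 1066.8 in THP-1 with DMSO, against 11584.5 and 12773.9 in HL-60 with diclofenac and 10114.3 and 10611.9 in HL-60 with DMSO, where most of it came from GPNMB. At an adjusted p under 0.05 for diclofenac in THP-1, 1 of the 9 macrophage markers was higher and 1 of the 7 promyelocyte markers lower. Of all genes, 0.159% were higher and 0.00836% lower there. The summed hepatocyte markers, of a cell type that makes apolipoproteins, stayed between 121.6 and 786 over 5 genes on the 8 arrays. The highest sum was in THP-1 with DMSO replicate 2. The part of cell maturity or cell mixture in the values below was not tested, and more cells of a type and more RNA per cell cannot be told apart in bulk RNA.

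**Figure D1:**
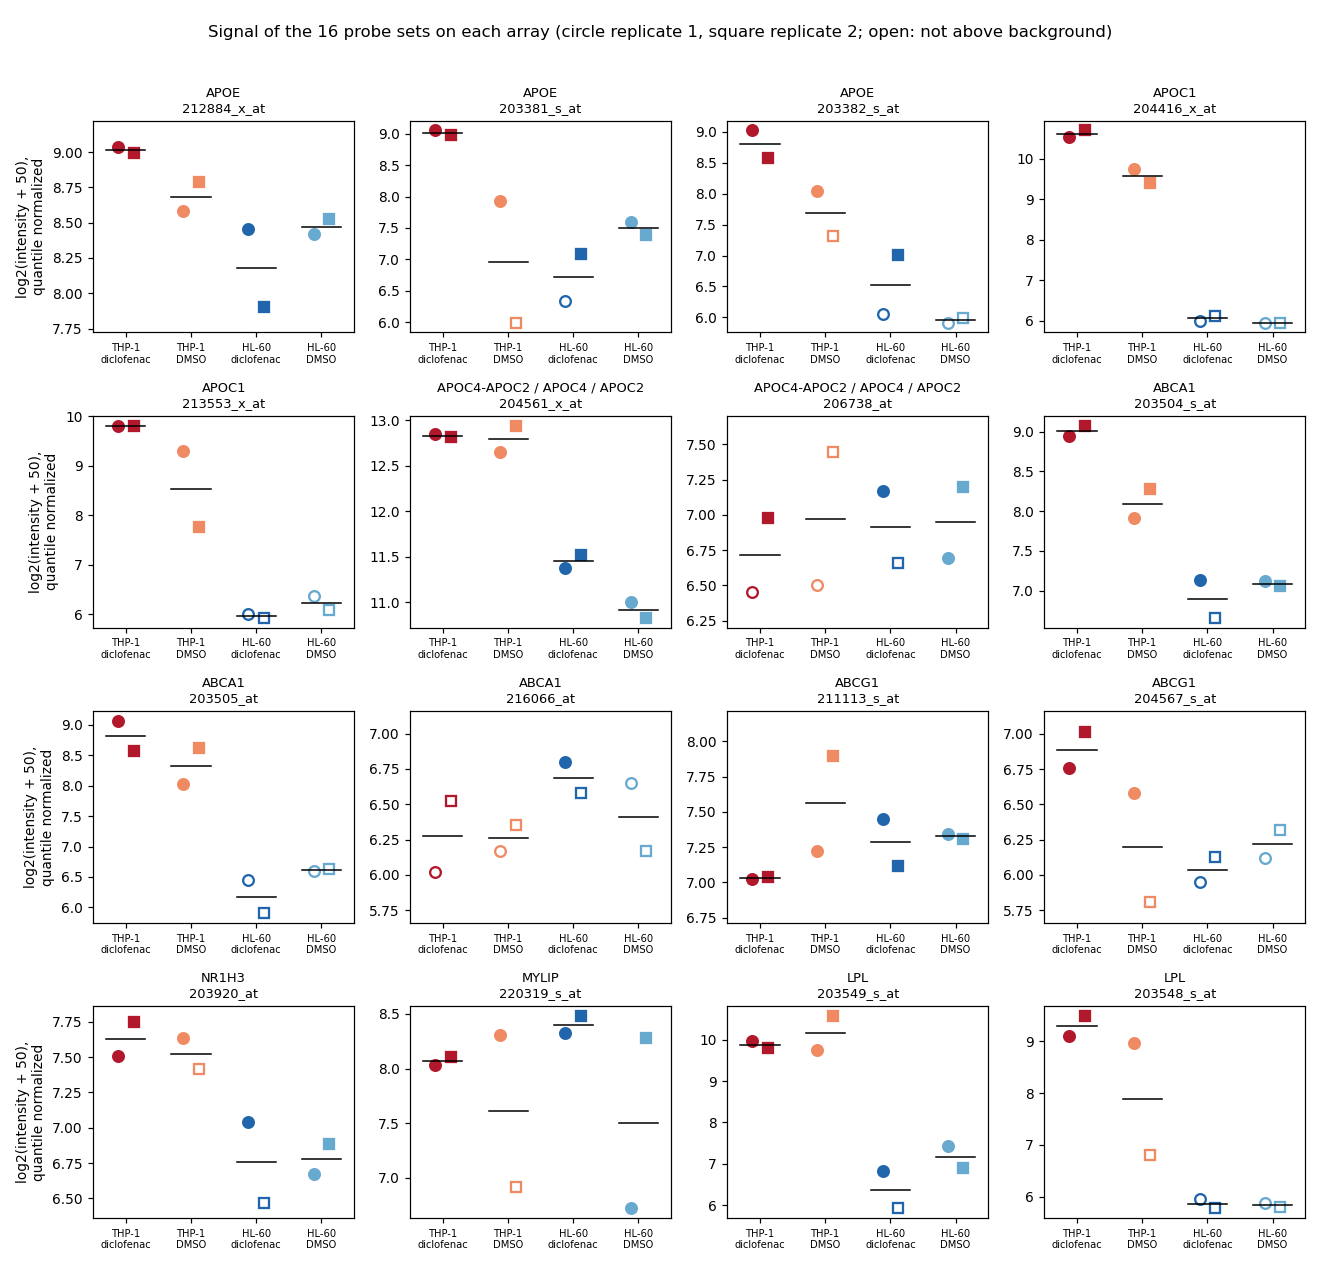
Normalized signal of the 16 probe sets, as log2 of intensity plus 50, on each of the 8 arrays. Circles are replicate 1, squares replicate 2, bars the group means and open symbols arrays not above background; the vertical axis differs between panels. The APOC1 panels show all 4 HL-60 arrays open and near the floor, while all 4 THP-1 arrays are filled.

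The 2 cell lines differed in several of these genes. THP-1 cells carried APOC1, LPL, ABCA1 and the probe set listed for APOC2 at higher signal than HL-60 cells, under both treatments. With diclofenac 9 of the 16 probe sets passed the threshold of 0.05 on the adjusted p, all higher in THP-1, where 13% of all probe sets tested passed, 6.76% higher and 6.26% lower. With DMSO 6 of the 16 passed it, all higher in THP-1, where 15.3% of all probe sets passed, 7.56% higher and 7.72% lower. Both THP-1 arrays lay above both HL-60 arrays for 12 of the 16 and below them for 3 with diclofenac, where 28.5% and 30.4% of all probe sets did, and above them for 10 and below them for 0 with DMSO, where 24.7% and 24.8% did. The median difference of the 16 was 1.75 log2 units with diclofenac and 0.88 with DMSO, beside -0.01 and 0.03 for all probe sets. The choice of genes was made with both comparisons in view, so nothing further is read from these counts.

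APOE encodes the ligand by which remnant lipoproteins are taken up, and macrophages secrete it with cholesterol. Probe set 203381_s_at read 470.9 and 432.9 in THP-1 with diclofenac, 167.1 and 49.8 in THP-1 with DMSO, 24.4 and 69.7 in HL-60 with diclofenac, and 162.4 and 103.8 in HL-60 with DMSO. The 2 THP-1 arrays with diclofenac were above all others, and the reading of 49.8 was not above the background of its array, nor was that of 24.4. THP-1 with diclofenac was 4.92-fold above HL-60 with diclofenac, a difference of 2.30 ± 0.60 log2 units (SE) with an adjusted p of 0.0386. With DMSO the line difference was -0.53 ± 0.60, adjusted p 0.61, and it turned to 0.46 without THP-1 DMSO replicate 2. Without replicate 1 it was -1.51, which rests on the THP-1 reading of 49.8 that was not above background, so it is no measured size.

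The other APOE probe sets did not follow it in every group. Probe set 203382_s_at read 459.4 and 309.1 in THP-1 with diclofenac, 185.1 and 211.1 in THP-1 with DMSO, 10.7 and 63 in HL-60 with diclofenac, and 10.1 and 9.3 in HL-60 with DMSO. Its HL-60 readings were above background on 1 of 4 arrays. The line difference was 4.83-fold with diclofenac, adjusted p 0.0118, and at least 1.96-fold with DMSO, adjusted p 0.0352. Probe set 212884_x_at, whose suffix marks probes that may bind several transcripts, read 466.1 and 440.5 in THP-1 with diclofenac, 305.1 and 473 in THP-1 with DMSO, 293.1 and 168 in HL-60 with diclofenac, and 310.8 and 307.1 in HL-60 with DMSO. It was above background on every array. In the limma fit on all 8 arrays it passed in neither line comparison. The differences were 0.84 ± 0.25 log2 units with diclofenac (adjusted p 0.0658) and 0.21 ± 0.25 with DMSO. Without THP-1 DMSO replicate 2 the difference with diclofenac was 0.88.

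APOC1 encodes a small apolipoprotein that slows lipoprotein uptake and lipolysis, and it was above background in THP-1 alone. Probe set 204416_x_at read 1478.2 and 1676 in THP-1 with diclofenac, 796.6 and 665.2 in THP-1 with DMSO, 9.1 and 12.7 in HL-60 with diclofenac, and 12.1 and 7.9 in HL-60 with DMSO. No HL-60 array was above background. THP-1 was therefore at least 14.9-fold above HL-60 with diclofenac (adjusted p 2.7e-05) and at least 7.3-fold above it with DMSO (adjusted p 7.4e-05), where the HL-60 side was set to the background level.

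Probe set 213553_x_at for APOC1 gave the same order of the lines. It read 847.6 and 849.6 in THP-1 with diclofenac, 558.8 and 281.8 in THP-1 with DMSO, 9.4 and 5.9 in HL-60 with diclofenac, and 38.1 and 12.4 in HL-60 with DMSO. The difference was at least 8.49-fold with diclofenac (adjusted p 0.00118) and at least 3.54-fold with DMSO (adjusted p 0.0146). Both APOC1 probe sets carry the suffix for probes that may bind several transcripts, so signal from related transcripts cannot be told apart from APOC1 here.

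APOC2 encodes the cofactor that LPL needs for its activity. Probe set 204561_x_at, listed for APOC2, APOC4 and their read-through and tied by its accession to the APOC2 transcript, read 7293.4 and 7543.9 in THP-1 with diclofenac, 6785 and 6011.9 in THP-1 with DMSO, 2679.8 and 2964.4 in HL-60 with diclofenac, and 1951.8 and 1800.6 in HL-60 with DMSO. All 4 THP-1 arrays were above all 4 HL-60 arrays. Probe set 204561_x_at also carries the suffix for probes that may bind several transcripts, so signal from related transcripts cannot be told apart from APOC2 here. The lines differed 2.6-fold with diclofenac, 1.38 ± 0.12 log2 units with an adjusted p of 0.000116, and 3.68-fold with DMSO, 1.88 ± 0.12 with an adjusted p of 2.3e-05. Probe set 206738_at, tied by its accession to APOC4, read between 31.7 and 232 over the 8 arrays and was above background on 4 of them, 1 of them in THP-1.

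LPL, which lies apart from the other genes at chr8:19939253-19967259, is secreted by macrophages and splits triglycerides at the cell surface. Probe set 203549_s_at read 961.1 and 847.8 in THP-1 with diclofenac, 801.9 and 1312.7 in THP-1 with DMSO, 51.4 and 5.8 in HL-60 with diclofenac, and 140.2 and 60.4 in HL-60 with DMSO. The lowest THP-1 array was above the highest HL-60 array. The line difference was 11.4-fold with diclofenac, 3.52 ± 0.40 log2 units with an adjusted p of 0.000584, and 7.98-fold with DMSO, 2.997 ± 0.40 with an adjusted p of 0.00129. Probe set 203548_s_at read 485.4 and 658.7 in THP-1 with diclofenac, 420.4 and 126.4 in THP-1 with DMSO, and 1.8 to 8.3 on the 4 HL-60 arrays, where it was never above background. For it THP-1 was at least 5.94-fold higher with diclofenac, adjusted p 0.00784, and at least 2.26-fold higher with DMSO, which did not pass (adjusted p 0.0645) but did under 6 of 16 alternatives, among them without THP-1 DMSO replicate 1 (0.0434) or replicate 2 (0.000644).

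ABCA1, the exporter that hands cholesterol to apolipoproteins, was likewise higher in THP-1. Probe set 203504_s_at read 433.9 and 466.9 in THP-1 with diclofenac, 163.9 and 364 in THP-1 with DMSO, 77 and 38.5 in HL-60 with diclofenac, and 105.2 and 72.4 in HL-60 with DMSO. Probe set 203505_at read 474.9 and 307.4 in THP-1 with diclofenac, 183.2 and 433.9 in THP-1 with DMSO, 29.8 and 5.4 in HL-60 with diclofenac, and 55.7 and 43 in HL-60 with DMSO, and no HL-60 array was above background. Neither probe set had a THP-1 array below an HL-60 array. With diclofenac the lines differed 4.34-fold for 203504_s_at (adjusted p 0.00367) and at least 4.28-fold for 203505_at (adjusted p 0.00281). With DMSO they differed at least 3.07-fold for 203505_at (adjusted p 0.021), while 203504_s_at, 2.01-fold higher, did not pass (adjusted p 0.0823). Under 3 of 16 alternatives 203504_s_at did pass with DMSO. Among them were leaving out the dimmest 40% (adjusted p 0.0377) and no intensity trend (0.0363). The third ABCA1 probe set, 216066_at, was above background on 1 of 8 arrays and is a bound only.

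ABCG1, the exporter to high-density lipoprotein, gave low readings. Probe set 211113_s_at read 74.2 and 69.3 in THP-1 with diclofenac, 81.3 and 303.1 in THP-1 with DMSO, 109.3 and 72 in HL-60 with diclofenac, and 130.2 and 95.3 in HL-60 with DMSO. The value of 303.1 belongs to the array of high background, and the other 7 lay within 69.3 to 130.2. Probe set 204567_s_at read 53.8 and 67.1 in THP-1 with diclofenac, 36.2 and 30.5 in THP-1 with DMSO, and 7.2 to 24.3 on the HL-60 arrays, none of them above background. Neither probe set passed in a line comparison. For 211113_s_at the differences were -0.25 ± 0.38 log2 units with diclofenac and 0.23 ± 0.38 with DMSO. For 204567_s_at THP-1 was at least 1.12-fold higher with diclofenac (adjusted p 0.0993; 0.012 and 0.0172 without THP-1 DMSO replicate 1 or 2, and 0.00588 with array weights), and with DMSO no fold is given.

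The receptor NR1H3 and the ligase MYLIP did not pass between the lines in the main fit. Under 1 of 16 alternatives, array weights, the NR1H3 difference with diclofenac passed (adjusted p 0.0408). NR1H3 read 123.4 and 146.7 in THP-1 with diclofenac, 125.6 and 227.8 in THP-1 with DMSO, 68.5 and 28 in HL-60 with diclofenac, and 61.9 and 59.2 in HL-60 with DMSO. After normalization all 4 THP-1 arrays were above all 4 HL-60 arrays, with differences of 0.87 ± 0.37 log2 units with diclofenac (adjusted p 0.197) and 0.75 ± 0.37 with DMSO (adjusted p 0.23). MYLIP read 201.1 and 202.8 in THP-1 with diclofenac, 235.5 and 143.8 in THP-1 with DMSO, 262.2 and 288.9 in HL-60 with diclofenac, and 66.2 and 248 in HL-60 with DMSO. Its HL-60 DMSO arrays were the farthest apart, and the line difference was -0.34 ± 0.58 with diclofenac and 0.11 ± 0.58 with DMSO.

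**Figure D2:**
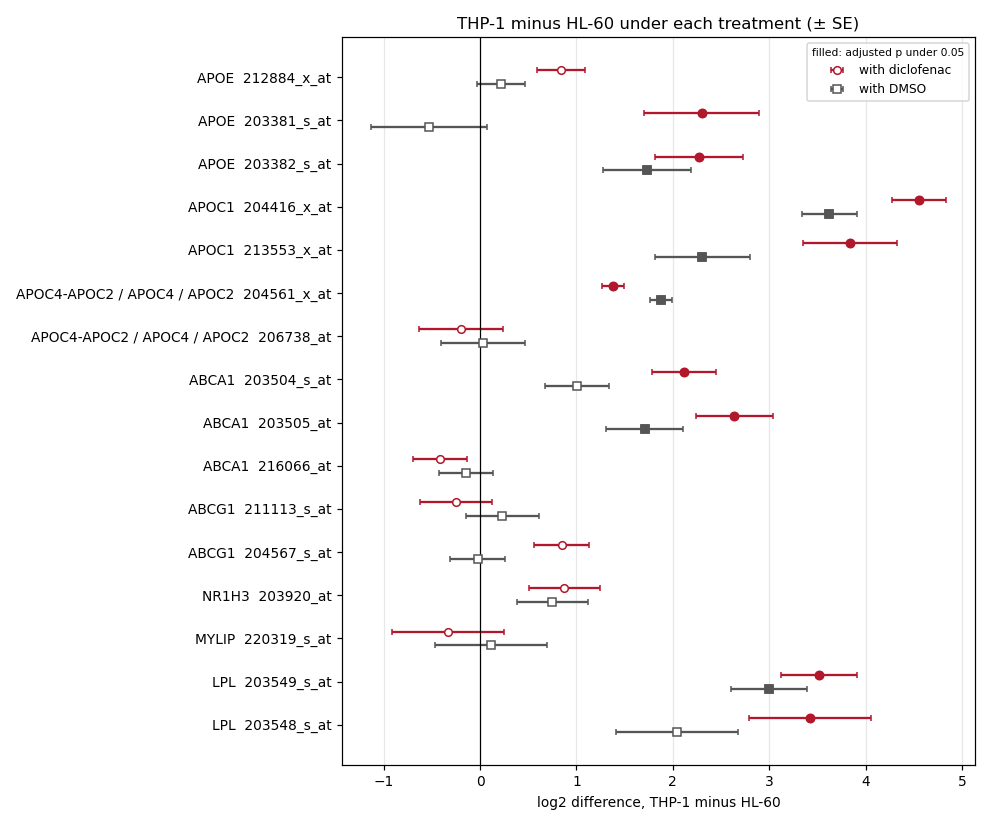
THP-1 minus HL-60 for the 16 probe sets, as log2 difference ± SE, with diclofenac (circles) and with DMSO (squares). Filled symbols have an adjusted p below 0.05, and every one of the 9 with diclofenac and 6 with DMSO lies to the right of 0. For probe sets not above background in HL-60 the plotted value is the fitted one, which is no measured size.

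How far single arrays carry these line differences varied by gene. APOC1 204416_x_at and LPL 203549_s_at passed in both line comparisons under all 16 alternatives tried, which include leaving out each array. APOE 203381_s_at lost its call with diclofenac under 9 of the 16, and its adjusted p ranged from 0.00037 to 0.247. With diclofenac, ABCA1 203504_s_at did not pass without THP-1 diclofenac replicate 2 (adjusted p 0.0593), LPL 203548_s_at without any 1 of the 4 diclofenac arrays (up to 0.0699), and APOE 203382_s_at without HL-60 diclofenac replicate 1 or either THP-1 diclofenac array (up to 0.118). With DMSO, APOC1 213553_x_at did not pass without either HL-60 DMSO array (up to 0.0972), and APOE 203382_s_at and ABCA1 203505_at did not pass under 5 of the 16 alternatives each (up to 0.193 and 0.126). The 204561_x_at difference did not pass under median centring, with adjusted p-values of 0.135 with diclofenac and 0.0776 with DMSO. The count of 9 with diclofenac fell to 5 without THP-1 diclofenac replicate 2, and the count of 6 with DMSO fell to 3 without either HL-60 DMSO array, with APOC1 204416_x_at, 204561_x_at and LPL 203549_s_at still passing.

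No diclofenac change of the 16 probe sets passed the threshold of the limma fit in either line. In THP-1 0 of 16 passed, where 0.135% of all probe sets did. At an unadjusted p under 0.05, 6 of the 16 were higher and 0 lower, where 5.45% of all probe sets were higher. In THP-1 both diclofenac arrays were above both DMSO arrays for 8 of the 16, and for 18.7% of all probe sets, and below them for 1 of the 16, and for 20.9% of all. The median change was 0.47 log2 units for the 16 and -0.02 for all. The genes were chosen with this comparison in view, so the counts are not read against that background.

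In THP-1 the highest fitted change of the 16 was that of APOE 203381_s_at. This probe set, with 470.9 and 432.9 against 167.1 and 49.8, was 4.15-fold higher with diclofenac, a change of 2.05 ± 0.60 log2 units with an adjusted p of 0.335, and the change was 1.14 without DMSO replicate 2. APOE 203382_s_at changed by 1.12 ± 0.45 (adjusted p 0.445; 0.79 without that array) and APOE 212884_x_at by 0.33 ± 0.25 (adjusted p 0.581; 0.46 without it). For all 3 APOE probe sets both diclofenac arrays stood above both DMSO arrays after normalization, and the sizes ran from 0.33 to 2.05.

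APOC1 204416_x_at, with 1478.2 and 1676 in THP-1 with diclofenac against 796.6 and 665.2 with DMSO, was 2.06-fold higher. The change was 1.04 ± 0.28 log2 units with an adjusted p of 0.305, and 0.90 without DMSO replicate 2. APOC1 213553_x_at changed by 1.27 ± 0.49 (adjusted p 0.433), and by 0.52 without that array. The probe set listed for APOC2 had overlapping arrays in THP-1 and a change of 0.03 ± 0.12 (adjusted p 0.91), which was 0.18 without DMSO replicate 2. For 206738_at and ABCA1 216066_at, above background on no THP-1 DMSO array, no change is given.

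ABCA1 203504_s_at, with 433.9 and 466.9 in THP-1 with diclofenac against 163.9 and 364 with DMSO, was 1.89-fold higher. Its change was 0.92 ± 0.33 log2 units with an adjusted p of 0.41, and 1.16 without DMSO replicate 2. ABCA1 203505_at changed by 0.49 ± 0.40 (adjusted p 0.604), with overlapping arrays, and by 0.82 without that array. The ABCG1 probe sets pointed in opposite directions, -0.53 ± 0.38 for 211113_s_at (adjusted p 0.568) and 0.69 ± 0.29 for 204567_s_at (adjusted p 0.454), and without the array of high background these were -0.19 and 0.30.

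NR1H3 in THP-1 changed by 0.10 ± 0.37 log2 units (adjusted p 0.915), and by -0.005 without DMSO replicate 2. MYLIP changed by 0.46 ± 0.58 (adjusted p 0.741), and by -0.25 without that array. The LPL probe sets disagreed, with -0.28 ± 0.40 for 203549_s_at (adjusted p 0.769) and 1.40 ± 0.63 for 203548_s_at (adjusted p 0.473), and without that array these became 0.14 and 0.33. The values of NR1H3, MYLIP and LPL 203549_s_at thus changed sign without that 1 array.

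**Figure D3:**
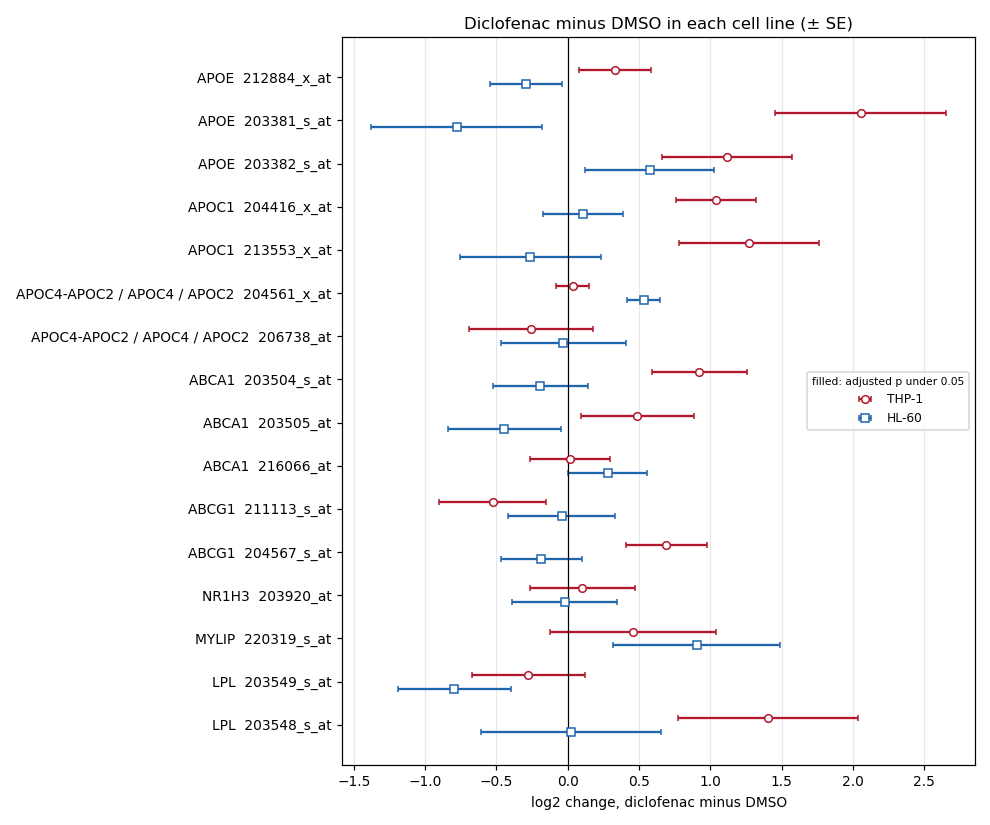
Diclofenac minus DMSO for the 16 probe sets, as log2 change ± SE, in THP-1 (circles) and HL-60 (squares). No symbol is filled, since none had an adjusted p below 0.05. The APOE and APOC1 probe sets lie right of 0 in THP-1, from 0.33 to 2.05. For probe sets above background on no array of a group the plotted value is the fitted one, which is no measured size.

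**Figure D4:**
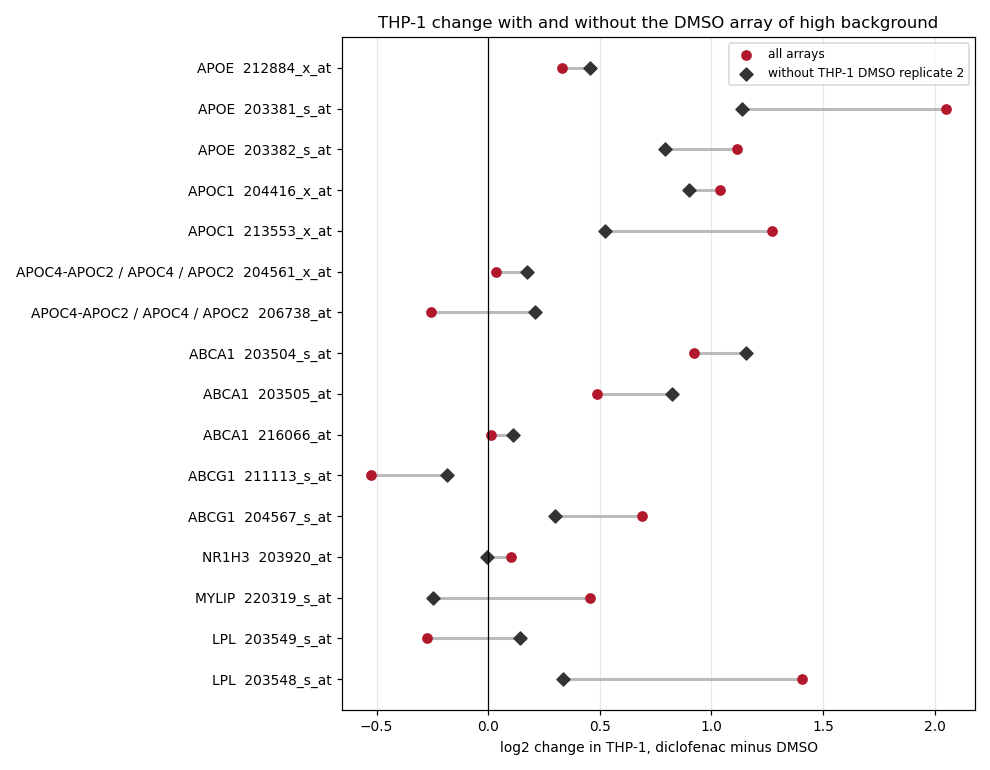
THP-1 change with diclofenac, in log2 units, from all arrays (circles) and without THP-1 DMSO replicate 2 (diamonds), for the 16 probe sets. APOE 203381_s_at moves to 1.14 without the array, against 2.05 with all arrays, and LPL 203548_s_at to 0.33 against 1.40.

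The outcome of the THP-1 comparison turned on which DMSO array was kept. Leaving out replicate 1 keeps only the array of high background. On that array APOE 203381_s_at and 203382_s_at, LPL 203548_s_at and ABCG1 204567_s_at were not above background, so their changes in that fit are no measured sizes. Without THP-1 DMSO replicate 1, 6 of the 16 passed, where 31% of all probe sets did, namely APOE 203381_s_at and 203382_s_at, both APOC1 probe sets, LPL 203548_s_at and ABCG1 204567_s_at, and the APOE 203381_s_at change was 3.02. Without replicate 2, 0 of the 16 passed, where 0.27% of all probe sets did. Relative to the median of all genes, which moved to -0.16 without quantile normalization and to 0.20 with each median centred, the THP-1 changes without quantile normalization were 1.93 for APOE, 1.22 for APOC1, 0.91 for ABCA1 and 0.37 for 204561_x_at, while NR1H3 stood at -0.10 and LPL at -0.02.

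In HL-60 diclofenac left the genes without a shared direction. Of the 16 probe sets, 6 had a fitted change above 0, with a median of -0.04 against 0.001 for all probe sets, and 0 passed, where 0.0045% of all probe sets did. At an unadjusted p under 0.05 there was 1 of the 16, the probe set listed for APOC2, where 2.38% of all probe sets were higher. It read 2679.8 and 2964.4 with diclofenac against 1951.8 and 1800.6 with DMSO, 1.45-fold higher, with a change of 0.53 ± 0.12 log2 units and an adjusted p of 0.589. Both diclofenac arrays were above both DMSO arrays for 4 of the 16, and for 20.1% of all probe sets, and below them for 4 of the 16, and for 19.1% of all probe sets.

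APOE 203381_s_at in HL-60, with 24.4 and 69.7 with diclofenac against 162.4 and 103.8 with DMSO, had a change of -0.78 ± 0.60 log2 units and -1.15 to -0.41 with 1 array left out, while APOE 212884_x_at had -0.29 ± 0.25. LPL 203549_s_at, with 51.4 and 5.8 against 140.2 and 60.4, had a change of -0.80 ± 0.40 and -1.25 to -0.35 with 1 array left out. MYLIP had 0.90 ± 0.58, which was 0.13 without HL-60 DMSO replicate 1, the array at 66.2. ABCA1 203504_s_at at -0.19 ± 0.33 and NR1H3 at -0.02 ± 0.37 were smaller than their errors in size. Every adjusted p in this paragraph was 1. APOC1, ABCA1 203505_at, ABCG1 204567_s_at and LPL 203548_s_at were above background in neither HL-60 group, and APOE 203382_s_at on 1 diclofenac array and no DMSO array, so no change is given for them.

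The diclofenac effect was tested for a difference between the lines, and 0 of the 16 passed in limma, where 0.0045% of all probe sets did. At an unadjusted p under 0.05, 3 of the 16 were higher in THP-1 and 1 lower, where 3.62% of all probe sets were higher. The THP-1 effect minus the HL-60 effect was 2.83 ± 0.85 log2 units for APOE 203381_s_at (adjusted p 0.535) and 1.11 ± 0.47 for ABCA1 203504_s_at (adjusted p 0.704). It was -0.50 ± 0.16 for 204561_x_at (adjusted p 0.581). Without THP-1 DMSO replicate 1, 5 of the 16 passed, where 18.2% of all probe sets did.

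The genes around them in cholesterol handling came from 7 lists of 70 genes, of which 57 were measured and 44 lay above background on both arrays of a group. None passed for diclofenac in THP-1 or in HL-60, where 0.167% and 0.00836% of all genes did. In each line 31 of the 57 had a change above 0, and the medians were 0.04 in THP-1 and 0.05 in HL-60, beside -0.01 and 0.002 for all genes. At an unadjusted p under 0.05 in limma, 8 of the 57 were higher and 3 lower in THP-1, where 6.23% and 5.53% of all genes were, and 4 were higher and 1 lower in HL-60, where 2.45% and 2.05% were. On the list named for other LXR targets 11 genes were measured, and whether LXR drives each of them in these cells was not tested. From this list 7 lay above background on both arrays of a group, and CETP, ABCG5 and CYP7A1 on no array. Of the 11, 3 had a change above 0 in THP-1, with a list median of -0.14, and 7 in HL-60, with a list median of 0.20. These counts and medians include the genes at background, so no direction of the list is read from them. ABCG4, at -1.01 in THP-1, stood at 0.11 without THP-1 DMSO replicate 2.

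CD36, the scavenger receptor for oxidized lipoproteins, read 354.1 and 336.3 in THP-1 with diclofenac against 92.2 and 285.3 with DMSO. Its change was 1.12 ± 0.16 log2 units with an adjusted p of 0.058, and without DMSO replicate 2 it was 1.41 and passed at 0.00512. PPARG, the fatty acid receptor that drives CD36 in macrophages, read 682.3 and 813.9 against 304.3 and 389, a change of 1.14 ± 0.22 (adjusted p 0.137). LIPA, the lysosomal lipase that frees cholesterol from lipoprotein esters, read 1925.9 and 1812 against 1092.6 and 1141.7, a change of 0.63 ± 0.11 (adjusted p 0.108), and passed at 0.0452 without DMSO replicate 2. SOAT1, which esterifies cholesterol for storage, read 1058.9 and 837.5 against 588 and 419.1, a change of 0.99 ± 0.27 (adjusted p 0.31), which was 0.60 without DMSO replicate 2. For each of these 4 genes both diclofenac arrays stood above both DMSO arrays.

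RXRA, the retinoid X receptor that partners LXR, pointed the other way in THP-1. It read 682.2 and 586.4 in THP-1 with diclofenac against 1032.3 and 1048.3 with DMSO, a change of -0.71 ± 0.20 log2 units (adjusted p 0.31), and in HL-60 1648.2 and 1588 with diclofenac against 912.2 and 1463.6 with DMSO, 0.46 ± 0.20 (adjusted p 1). CYP27A1, which makes an oxysterol ligand of LXR, was above background on neither HL-60 array with diclofenac, at 22.9 and 16.3, against 145.6 and 120.1 with DMSO, at least 1.72-fold lower (adjusted p 0.885). In THP-1 it read 106.7 and 135.6 with diclofenac, against 16.5 and 192.1 with DMSO, neither above background. PLTP, a phospholipid transfer protein and LXR target, had the highest HL-60 change of its list, 0.71 ± 0.21 (adjusted p 0.784), with 626.1 and 745 against 357.3 and 481.4.

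The other genes named by the rule of size had changes within the following values. In THP-1, CLU stood at 1.03 ± 0.41, PPARD at 1.00 ± 0.41, NCOA1 at 0.79 ± 0.46 and APOL3 at 0.55 ± 0.25 log2 units. FASN stood at -0.49 ± 0.17, ABCG4 at -1.01 ± 0.65, OLR1 at -0.57 ± 0.61 and LMF1 at -0.61 ± 0.51 there. Without DMSO replicate 2, CLU stood at 0.42 and PPARD at 0.33, and NCOA1, ABCG4, OLR1 and LMF1 turned sign. On that array NCOA1 read 109.1, which was not above background. In HL-60, LPCAT3 stood at 0.61 ± 0.32, CAV1 at 0.51 ± 0.47, PPARD at 0.46 ± 0.41, PPARG and LMF1 at 0.27, APOL3 at 0.57 ± 0.25, LIPE at 0.19 ± 0.42, RXRG at -0.19 ± 0.39, APOA2 at -0.25 ± 0.38, and MSR1 and LRP1 at -0.66. CAV1 was above background on 1 of 4 HL-60 arrays, and APOL3 and MSR1 on no array of 1 of the 2 HL-60 groups. The HL-60 changes given for CAV1, APOL3 and MSR1 are therefore no measured sizes.

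**Figure D5:**
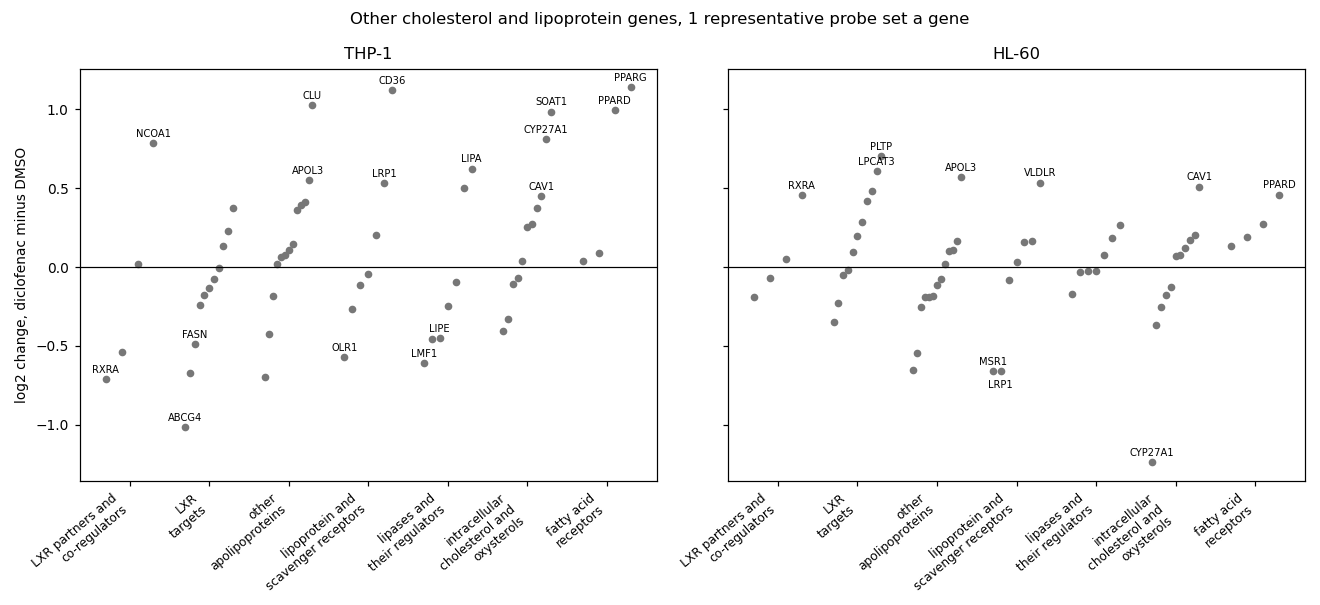
Log2 change, diclofenac minus DMSO, of the other cholesterol and lipoprotein genes in 7 lists, 1 representative probe set per gene, in THP-1 (left) and HL-60 (right). None passed the threshold. CD36 and PPARG lie at 1.12 and 1.14 in THP-1, and CYP27A1 lies lowest in HL-60. For genes above background on no array of a group, CYP27A1 among them, the plotted value is the fitted one, which is no measured size.

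Between the lines, the surrounding genes went in both directions. With diclofenac 4 of the 57 were higher in THP-1 and 6 lower, where 8.35% and 7.62% of all genes were. With DMSO 5 were higher and 6 lower, where 9.29% and 9.31% were. The examples that follow were chosen after their values were seen. CD36 was 9.18-fold lower in THP-1 with diclofenac (adjusted p 9.35e-06) and 17.9-fold lower with DMSO (adjusted p 3.29e-06), at 92.2 to 354.1 over the THP-1 arrays and 3124 to 3887 over the HL-60 arrays. NPC1, which moves cholesterol out of lysosomes, was 4.59-fold lower with diclofenac (adjusted p 0.000129) and 4.94-fold lower with DMSO (adjusted p 9.52e-05). SCARB1, a receptor for high-density lipoprotein, was 1.98-fold higher with diclofenac (adjusted p 0.0101) and 2.09-fold higher with DMSO (adjusted p 0.00647). Its call with diclofenac was lost without any 1 of the 4 diclofenac arrays (adjusted p 0.053 to 0.108) and under median centring (0.124), and that with DMSO under median centring (0.179).

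The genes whose pattern over the 8 arrays was most like each member were found by Pearson correlation among 9321 genes. The 8 arrays are 2 lines of 4, so these values mostly restate which genes differ between the lines, and they are descriptions without a test. For APOC1 the closest were WNK1 at 0.998, CYP1B1 at 0.997 and OGFRL1 at 0.997. ABCA1 was closest to NFKBIA at 0.999, RNASET2 at 0.997 and MMP9 at 0.982, and LPL to ARMCX6 at 0.996, ECHDC2 at 0.995 and MAGEB2 at 0.994. For APOE the closest were COL9A3 at 0.982, PPP3CB at 0.968 and BCL2L13 at 0.967. NR1H3 was closest to NAP1L3 at 0.976, OSBPL9 at 0.975 and TRIP12 at 0.975, MYLIP to CD2AP at 0.977, BLVRA at 0.969 and YWHAE at 0.961, and ABCG1 to HCRP1 at 0.988, POLR2J4 at 0.976 and SEMA3G at 0.973.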

How the data were processed

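Total RNA was labelled as biotinylated cRNA and hybridised to Affymetrix human arrays, per the labels' protocols. The authors deposited 1 linear intensity per probe set and array, and the software behind these intensities is not given in the sources used here. Their mean without the top and bottom 2% was 500.1 to 500.2 on each array. Of 22277 probe sets, 62 controls were left out. Gene names came from the platform annotation, and promoters from RefSeq.

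Intensities were turned to log2 after adding 50 and quantile normalized, because array medians spanned 0.87 log2 units, over the 0.5 allowed. Group means were fitted on all 8 arrays with limma 3.58.1 in R 4.3.3 with an intensity trend (4 residual and 4.41 prior degrees of freedom). Benjamini-Hochberg adjustment ran over 22215 probe sets, at 0.05, for 5 contrasts. Errors are moderated standard errors, and the number of arrays, 2 a group, limits the precision. A gene's representative was its probe set with the highest mean and 1 symbol, sets ending in _x_at only where it had no other. A probe set above background on no array of a group has only a bound: the brighter group's mean against the higher of the background and the dim value on each array, given as "at least". Scripts were tested on simulated data.

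The deviations of same-numbered arrays from their group means had a correlation of -0.008 (THP-1) and -0.004 (HL-60), and the replicate numbers were not taken to pair arrays. All members are named; from the lists, genes past the threshold for diclofenac and the 2 with the largest change per list and line. The members and lists were chosen with earlier results of these data known. Alternatives were the deposited scale, centred medians, adding 16 or nothing, leaving out the dimmest 40%, no trend, array weights, a replicate block, each line alone, leaving out each array, and averaging all probe sets of a gene.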

Additional observations from a re-analysis of the deposited data

Results flagged for a closer look

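The readings of APOE 203381_s_at lay higher with diclofenac in THP-1 and lower in HL-60, with fitted changes of 2.05 and -0.78 log2 units. The difference was 2.83, and its own test did not pass, with an adjusted p of 0.535 in limma. The readings of 49.8 in THP-1 with DMSO and 24.4 in HL-60 with diclofenac were not above background. In HL-60 the other APOE probe sets did not repeat the fall. There 212884_x_at, at -0.29, had overlapping arrays, and 203382_s_at was above background on no DMSO array. Without THP-1 DMSO replicate 2 the difference was 1.91.

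The readings of APOC1 213553_x_at lay higher with diclofenac in THP-1 and lower in HL-60, with fitted values of 1.27 and -0.26, but no HL-60 array was above background for it, so no direction was measured in HL-60. The fitted difference was 1.53, with an adjusted p of 0.733 in limma.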

How the results depend on the processing

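Values under the alternatives were tallied for each member gene's representative probe set and for the probe set tied to the APOC2 transcript. List genes were tallied if they had the largest changes for diclofenac or passed between the lines. Of these values, 1337 kept direction and side of the threshold, 83 no longer passed, 24 newly passed and 28 changed sign. The other probe sets of the members are not in this tally. Of 164 counts of passing members or list genes, 142 stayed within 1.5 times. The lowest and highest counts of the 16 probe sets passing with 1 array left out were 5 and 11 for the line difference with diclofenac, 3 and 9 for that with DMSO, 0 and 6 for diclofenac in THP-1, and 0 and 5 for the difference between the lines in the diclofenac effect. For list genes the same counts were 4 and 16, 6 and 21, 0 and 17, and 0 and 14. The high THP-1 counts of 6, 17, 5 and 14 all came without THP-1 DMSO replicate 1, and without replicate 2 there were 2 list genes for diclofenac in THP-1. Median centring gave 2 list genes with diclofenac and 4 with DMSO between the lines, against 10 and 11. Between the lines with diclofenac, 5 list genes passed with no intensity trend and 16 with array weights. For diclofenac in THP-1, an offset of 16 or leaving out the dimmest 40% gave 1 list gene. The cause of these shifts was not tested.

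Among the values in that tally, signs turned as follows. On the deposited scale NR1H3 was at -0.26 in THP-1 and -0.057 in the difference of effects between the lines. Centring put LPL at 0.18 in THP-1, and averaging all probe sets of a gene put LPL at 0.56 and ABCG1 at 0.082 in THP-1 and APOC1 at -0.077 in HL-60. With 1 array left out, THP-1 changes ranged from -0.02 to 0.23 for NR1H3, -0.25 to 1.15 for MYLIP, -0.69 to 0.14 for LPL, -0.11 to 0.18 for 204561_x_at, -0.021 to 1.59 for NCOA1, -2.13 to 0.11 for ABCG4, -1.59 to 0.45 for OLR1 and -1.41 to 0.19 for LMF1. HL-60 changes ranged from -0.44 to 0.051 for ABCA1, -0.21 to 0.12 for ABCG1, -0.31 to 0.27 for NR1H3 and -0.70 to 0.31 for RXRG. The difference of effects ranged from -0.17 to 0.41 for NR1H3 and -1.22 to 0.33 for MYLIP. The line difference with DMSO ranged from -1.51 to 0.46 for APOE, -0.11 to 0.57 for ABCG1 and -0.67 to 0.89 for MYLIP.

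With the replicate number as a block, 9 of the 16 probe sets passed between the lines with diclofenac, 5 with DMSO and 0 in the diclofenac comparisons. Signal near background, and only 2 arrays a group, limit what can be seen for ABCG1, NR1H3 and the HL-60 readings of APOC1 and LPL.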
